A study of Rattus norvegicus with 6 samples.

Results

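The 35 genes described here mark microglia and macrophages, and they were followed in 3 cultured populations of olfactory ensheathing cells (OECs) of the rat, a glial type that accompanies axons of the olfactory nerve. They were chosen by symbol as genes of myeloid cells, and every probe set whose only annotated gene was one of them was taken. The list was drawn up with earlier results of these data known, so its contrasts with all genes are not independent support. On the RAE2.0 array 33 of the 35 had such probe sets (39 probe sets, out of 14217 genes on that array), and on the older U34A array 17 had them (30 probe sets, out of 4736 genes). Spi1 (PU.1, the transcription factor that directs myeloid cell fate) and Msr1 (a macrophage scavenger receptor) were not analysed here.

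All cells came from the olfactory nerve layer of Wistar rat olfactory bulbs and were kept in DMEM with 3% fetal bovine serum, 20 µg/ml bovine pituitary extract and 2 µM forskolin. OEC Ep was a primary culture of 21-day-old rats grown for a week, with less than 3 population doublings. OEC Lp came from rats of the same age and had been passaged beyond 50 doublings. For both, more than 90% of the cells were stated to be OECs by immunocytochemistry. TEG3 is a clonal line from rats of 60 days, immortalised by transfection with the large T antigen of SV40, so it stands for 1 clone. Total RNA, pooled from 3 cultures, was hybridised for each population to 1 U34A array and 1 RAE2.0 array. A value on 1 array type therefore rests on a single array per population. A value over both types rests on 2 arrays per population, whose number limits the precision. The question followed here was whether OEC Ep held RNA of myeloid cells and which of these genes OEC Lp or TEG3 kept. Donor age, doublings and immortalisation cannot be told apart in the comparisons with TEG3.

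Microglia are the resident macrophages of the central nervous system, and macrophages also populate the olfactory bulb's nerve layer, where axons of olfactory neurons are lost and replaced throughout life. Both depend on signalling through the receptor for colony stimulating factor 1, recognise antibody-coated or damaged material through receptors that signal by small adaptor proteins, and digest it in lysosomes. Primary glial cultures made from brain tissue commonly carry some of these cells.

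Signals were in MAS5 units, and those below the 40th percentile of an array type, 129 on U34A and 168 on RAE2.0, were set to that value, called the floor. The share of probe sets above the floor was alike in the populations, 59.1 to 61.8% on RAE2.0 and 59.2 to 61.5% on U34A. The labelled cell type was checked with markers of OECs and Schwann cells. On RAE2.0, 13 of 14 such genes were above the floor in OEC Ep, but 3 in OEC Lp and 3 in TEG3. The older array kept more of them, with 12 (OEC Ep), 6 (OEC Lp) and 7 (TEG3) of 12 genes above its floor. A further 0, 2 and 4 genes, in the same order, had only some of their probe sets above that floor. The array types thus disagreed on how many of these markers stayed above the floor outside OEC Ep. Sox10 (a transcription factor of neural crest glia) had RAE2.0 signals of 5745 in OEC Ep, the floor in OEC Lp and 233 in TEG3. As a sign of RNA quality, GAPDH had 3'/5' signal ratios on U34A of 1.96 (OEC Ep), 1.52 (OEC Lp) and 1.54 (TEG3), and on RAE2.0 of 0.981 to 1.02. Its part in the differences below was not tested.

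OEC Ep held RNA of nearly the whole set of microglia and macrophage genes. On RAE2.0, 30 of the 33 genes passed the filter, that is, exceeded the floor on at least 1 array. Of these, 30 were above the floor in OEC Ep against 7 in OEC Lp and 10 in TEG3. A gene counted as above the floor when all its probe sets that passed the filter were. Over all 11542 genes that passed the same filter on this array, the shares were 82.8% in OEC Ep against 84.9% in OEC Lp and 81.8% in TEG3. The 3 genes at the floor on all 3 arrays were Cx3cr1 (the fractalkine receptor of microglia), Cd163 (a haemoglobin scavenger receptor of tissue macrophages) and Cd74 (the invariant chain of MHC class II). The remaining 30 genes had their highest RAE2.0 signal in OEC Ep in every case. For 18 of them, above the floor in OEC Ep alone, the filter fixed both this and their place in the counts above. Of 36 member probe sets above the floor on at least 1 RAE2.0 array, 36 were highest in OEC Ep, against 26.5% of all probe sets above it. On U34A the count was 19 of 21, against 34.6%. There, 15 of the 17 members passed the filter, of which 14 were above the floor in OEC Ep against 6 in OEC Lp and 8 in TEG3. The shares over all genes past the filter were 80.6%, 78% and 77.5%. Of the 15 members, 5 were above the floor in OEC Ep alone. In bulk RNA, fewer cells of a type and less RNA per cell cannot be told apart.

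Between OEC Lp and OEC Ep, RAE2.0 gave 27 of the 30 genes a signal at least 2-fold lower in the long-term culture and 0 a signal at least 2-fold higher, with a median log2 ratio of -2.75 against 0.09 for all genes. Over all genes 10.4% were at least 2-fold lower and 10.4% higher. Between TEG3 and OEC Ep, 28 were at least 2-fold lower and 0 higher, with a median log2 ratio of -2.86 against 0.11, and 10.6% of all genes were at least 2-fold lower and 12% higher. On U34A, 9 of 15 members past the filter were at least 2-fold lower and 0 higher in OEC Lp, beside 10.1% and 10.9% of all genes. In TEG3, 12 were lower and 0 higher, beside 12.8% and 10.5%. Both comparisons share the OEC Ep array. Of the 30 genes, 18 were above the floor in OEC Ep alone, against 4.53% of all genes past the filter, so they passed the filter only because they were high there and had to be lower elsewhere. These counts rest on 1 array per population and have no test.

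**Figure D1:**
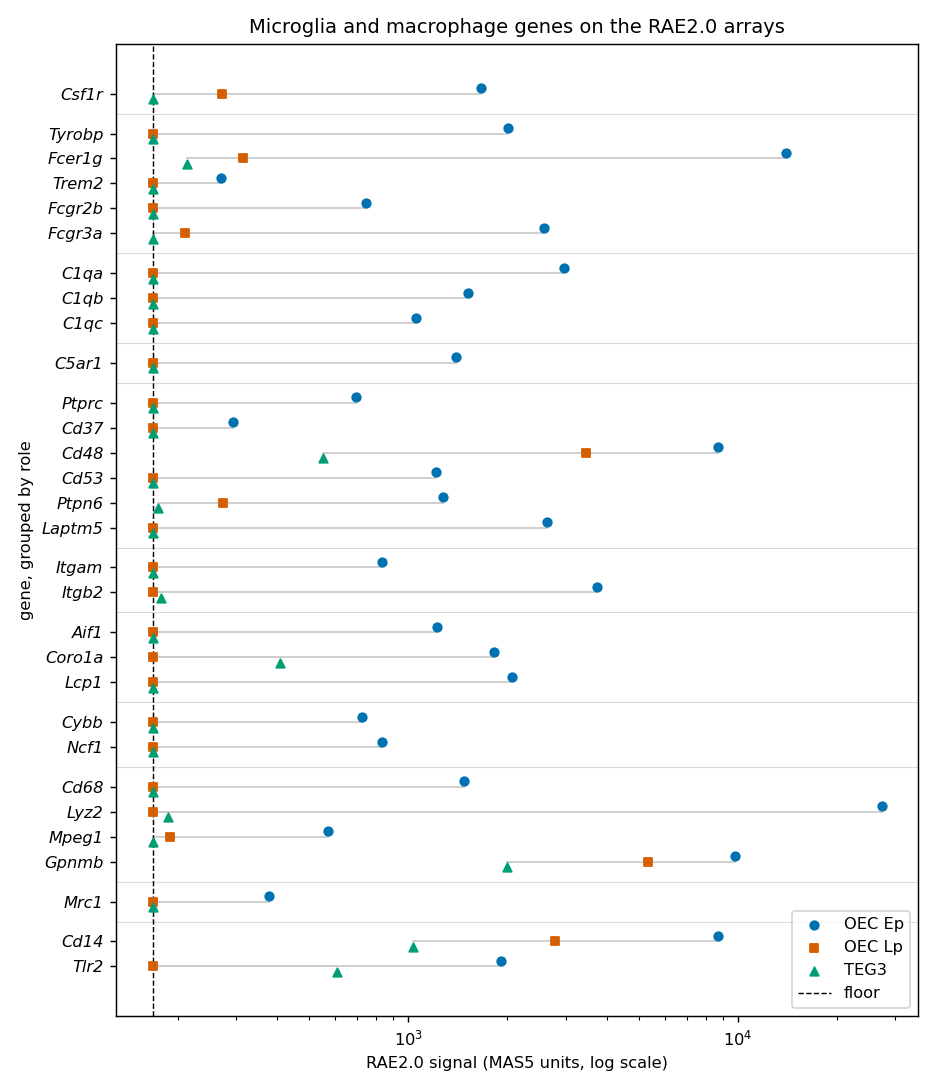
RAE2.0 signal (horizontal, MAS5 units, log scale) of the 30 members above the floor on at least 1 array, in the 3 populations, 1 array each, grouped by role from the growth factor receptor at the top to sensors of bacterial products at the bottom. The dashed line is the floor of 168; the OEC Ep points lie to the right of the others for every gene, and most OEC Lp and TEG3 points lie on the line.

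The promoters of the members are shown because nearly all of these genes had lower signals together outside OEC Ep. Of the 35 genes, 25 had a protein-coding entry in the RefSeq promoter table (GRCr8 build), and the 250 bases before the gene start were searched on both strands. The letters GAGGAA, the core recognised by PU.1 and shared with other ETS factors, occurred in 16 of 25 member promoters (64%) and in 23.1% of all 21851 protein-coding promoters of the same length. The longer GAGGAAGT, which contains the first motif, occurred in 3 of 25 (12%) and in 2.03% of all. TATAAA occurred in 1 of 25 (4%) and in 12.1% of all, and the median number of CpG dinucleotides was 4 in members and 8 in all promoters. A match describes the letters in this window only, and its link to the signal differences was not tested. The members were chosen as myeloid genes, so these shares describe that list and not the arrays. The promoters below are those of members that passed the test in both comparisons with OEC Ep and had an entry (Lyz2, C1qb, Cd53), and those that hold the longer motif (Cd53, Cd37, Fcgr3a). Each is written 5′ to 3′ along the gene's strand, ends at the base before the gene start, and has GAGGAA or its reverse complement TTCCTC in capitals. The window of Lyz2 lies at chr7:54798012-54798261 (minus strand), that of C1qb at chr5:154407828-154408077 (minus strand), that of Cd53 at chr2:197087897-197088146 (minus strand), that of Cd37 at chr1:104860785-104861034 (minus strand) and that of Fcgr3a at chr13:85782386-85782635 (plus strand).
Lyz2: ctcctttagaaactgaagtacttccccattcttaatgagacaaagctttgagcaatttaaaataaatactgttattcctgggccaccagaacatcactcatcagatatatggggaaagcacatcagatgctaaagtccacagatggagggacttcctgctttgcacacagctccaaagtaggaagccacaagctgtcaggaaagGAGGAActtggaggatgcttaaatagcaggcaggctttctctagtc
C1qb: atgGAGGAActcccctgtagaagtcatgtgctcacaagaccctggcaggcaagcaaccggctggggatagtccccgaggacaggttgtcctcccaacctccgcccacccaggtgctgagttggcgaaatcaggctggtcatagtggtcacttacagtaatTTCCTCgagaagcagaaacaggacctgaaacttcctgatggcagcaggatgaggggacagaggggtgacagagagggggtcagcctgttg
Cd53: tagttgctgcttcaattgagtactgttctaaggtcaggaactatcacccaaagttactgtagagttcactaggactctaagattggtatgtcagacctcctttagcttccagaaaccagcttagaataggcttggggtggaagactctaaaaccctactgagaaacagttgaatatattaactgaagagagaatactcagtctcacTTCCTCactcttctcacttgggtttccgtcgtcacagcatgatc
Cd37: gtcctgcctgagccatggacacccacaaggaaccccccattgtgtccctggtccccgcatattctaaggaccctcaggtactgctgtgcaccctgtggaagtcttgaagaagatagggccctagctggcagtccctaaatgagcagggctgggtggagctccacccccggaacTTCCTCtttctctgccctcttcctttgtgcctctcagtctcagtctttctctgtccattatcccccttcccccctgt
Fcgr3a: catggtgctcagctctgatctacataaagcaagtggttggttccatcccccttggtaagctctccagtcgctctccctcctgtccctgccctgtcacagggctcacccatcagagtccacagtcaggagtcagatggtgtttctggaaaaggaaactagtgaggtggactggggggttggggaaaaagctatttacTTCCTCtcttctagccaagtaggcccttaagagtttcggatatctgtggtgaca
In Lyz2 the motif lies 46 bases before the gene start, in Cd53 44, in Fcgr3a 54 and in Cd37 77 bases before it, while C1qb has it at 247 and at 90 bases before the start. The motif was also in the windows of Csf1r, Cd14, Cd68, Cybb, Ptprc, Itgam, Laptm5, Mrc1, Trem2, Gpnmb and Cd74. It was not in those of Cd48, Coro1a, Ptpn6, Tlr2, Mpeg1, C1qa, Ncf1, Cx3cr1 and Cd163.

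The growth factor receptor and the immune receptors with their adaptors are described first. Csf1r, the receptor for colony stimulating factor 1 on which microglia depend, had RAE2.0 signals of 1665 in OEC Ep against 273 in OEC Lp and 169 in TEG3, the last at the edge of the floor. On U34A its probe set was at the floor on all 3 arrays, so the older array did not show the gene above the floor in any population. Fcer1g, the gamma chain through which Fc receptors signal, had an RAE2.0 signal of 13978 in OEC Ep against 316 in OEC Lp and 214 in TEG3, so that OEC Lp had 2.26% and TEG3 1.53% of the OEC Ep signal. Tyrobp (DAP12), the adaptor of Trem2 in microglia, had 2012 in OEC Ep and was at the floor in both other populations. Trem2, a lipid-sensing receptor, was near the floor in OEC Ep with 271 and at the floor elsewhere.

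Both Fc receptors for IgG were at or near the floor outside OEC Ep. Fcgr2b, the inhibitory receptor for IgG, had signals of 1447 on U34A and 745 on RAE2.0 in OEC Ep and was at the floor in OEC Lp and TEG3 on both types. The fall was at least 7.05-fold in both (log2 fold -2.82, SE 0.436, 2 arrays per population), with a limma adjusted p of 0.0236 in OEC Lp and 0.0315 in TEG3. Being above the floor in OEC Ep alone on both types, Fcgr2b passed the filter only there, so its direction was fixed. Fcgr3a, an activating receptor for IgG, had RAE2.0 signals of 2586 in OEC Ep, 211 in OEC Lp and the floor in TEG3.

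The 3 chains of C1q, the starter protein of the complement cascade that macrophages and microglia secrete, were each above the floor in OEC Ep on RAE2.0 and at it in both other populations. The OEC Ep signals were 2971 for C1qa, 1522 for C1qb and 1056 for C1qc. C1qb was measured on both types, with 2322 in OEC Ep on U34A and the floor in OEC Lp and TEG3. The fall was at least 12.8-fold in both (log2 fold -3.67, SE 0.377), with a limma adjusted p of 0.00923 in OEC Lp and 0.0101 in TEG3. As for Fcgr2b, C1qb passed the filter only through OEC Ep, so its direction was fixed. C1qc had U34A signals of 438 in OEC Ep against 259 in OEC Lp and 170 in TEG3, a smaller difference than on RAE2.0. Over both types it did not pass (log2 fold -1.71 in OEC Lp and -2.01 in TEG3, limma adjusted p = 0.134 and 0.0974). C5ar1, the receptor for the complement fragment C5a, had RAE2.0 signals of 1395 in OEC Ep and the floor elsewhere. Its 2 U34A probe sets disagreed, with 1 at 662 in OEC Ep against 326 in OEC Lp and 336 in TEG3 and the other at 1069, 1084 and 1100, and the gene did not pass (limma adjusted p = 0.24 and 0.223).

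Of the pan-leukocyte genes, most were at or near the floor outside OEC Ep. Ptprc (CD45), the phosphatase on all leukocytes, had RAE2.0 signals of 695 in OEC Ep and the floor in the others, and U34A signals of 265, 143 and the floor. Its log2 fold was -1.47 in OEC Lp and -1.54 in TEG3, which did not pass (limma adjusted p = 0.11 and 0.0987). Cd53, a tetraspanin of leukocytes, had signals of 589 on U34A and 1217 on RAE2.0 in OEC Ep and was at the floor elsewhere on both types. The fall was at least 5.75-fold in both (log2 fold -2.52, SE 0.332), with a limma adjusted p of 0.0157 in OEC Lp and 0.0196 in TEG3. Cd53 too passed the filter only through OEC Ep, so its direction was fixed. Laptm5, a lysosomal protein of blood cells, had 2643 in OEC Ep on RAE2.0 and the floor elsewhere, for both of its probe sets. Cd37, another tetraspanin, had U34A signals of 560 in OEC Ep, the floor in OEC Lp and 156 in TEG3. On RAE2.0 it had 295 in OEC Ep and was at the floor in the others. It did not pass (limma adjusted p = 0.122 and 0.146). Ptpn6 (SHP-1), a phosphatase that damps receptor signalling, had RAE2.0 signals of 1274, 274 and 175 and U34A signals of 322, the floor and 150, and did not pass either (limma adjusted p = 0.11 and 0.088). Its OEC Lp signal on RAE2.0 was 21.5% of that in OEC Ep. Cd48 is described below with the other genes that OEC Lp or TEG3 kept.

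The leukocyte integrin of macrophages, CD11b/CD18, joins the products of Itgam and Itgb2. Itgb2 had RAE2.0 signals of 3725 in OEC Ep, the floor in OEC Lp and 178 in TEG3, and Itgam had 836 in OEC Ep and the floor in the others. On U34A the Itgam probe set was at the floor on all 3 arrays. Among actin regulators, Aif1 (IBA1), the protein most used to stain microglia, had U34A signals of 1408 and RAE2.0 signals of 1223 in OEC Ep and was at the floor in the others. The fall was at least 8.91-fold in both (log2 fold -3.16, SE 0.322), with a limma adjusted p of 0.00923 in OEC Lp and 0.0101 in TEG3. Aif1 too passed the filter only through OEC Ep, so its direction was fixed. Its RAE2.0 probe sets had 6031 and 248 in OEC Ep, so the 2 gave different sizes of the same direction. Lcp1 (L-plastin), which bundles actin, had 2072 in OEC Ep and the floor elsewhere on RAE2.0.

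The NADPH oxidase, which makes the oxidative burst of phagocytes, was represented by its catalytic subunit Cybb and its organiser Ncf1. They had RAE2.0 signals of 726 and 836 in OEC Ep, and both were at the floor in OEC Lp and TEG3. Lyz2, the lysozyme of macrophages, had U34A signals of 17278 in OEC Ep against 192 in OEC Lp and 378 in TEG3, and RAE2.0 signals of 27318 against the floor and 187. Lyz2 fell at least 121-fold in OEC Lp (log2 fold -6.92, SE 0.457), with a limma adjusted p of 0.00441, and 81.7-fold in TEG3 (log2 fold -6.35, SE 0.457), with an adjusted p of 0.00452. Cd68, a lysosomal glycoprotein, had RAE2.0 signals of 1482 in OEC Ep and the floor elsewhere. Mpeg1 (perforin-2), a pore-forming protein of macrophages, had 571, 190 and the floor as the mean of 2 probe sets, of which 1 was at the floor in OEC Lp. Mrc1, the mannose receptor, had 378 in OEC Ep and the floor elsewhere. Cd74 had 1 of its 4 U34A probe sets above the floor, with 294 in OEC Ep, and was at the floor in the other populations and throughout RAE2.0.

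Across both types together, 13 of the 35 members could be tested. In OEC Lp against OEC Ep, 5 of the 13 fell and 0 rose, beside 4.03% of all 3130 genes called lower, 2.11% higher and 6.13% in either direction. In TEG3 against OEC Ep, 6 of 13 fell and 0 rose, beside 3.77% lower, 0.671% higher and 4.44% in either direction. At an unadjusted p under 0.05, 12 of the 13 were lower in OEC Lp and 13 in TEG3, beside 614 and 679 of all 3130 genes in either direction. The genes called in OEC Lp, Aif1, C1qb, Cd53, Fcgr2b and Lyz2, were all called in TEG3 too, where Cd48 was the sixth. The median log2 fold of the 13 was -1.78 in OEC Lp and -2.01 in TEG3, against 0.11 and 0.04 for all genes. Of the 13, 4 genes were above the floor in OEC Ep alone on both types, and these 4 were among the called ones in both comparisons. They passed the filter only through OEC Ep, so their direction was fixed. With OEC Lp and TEG3 at the floor on both types, part of their spread was removed, so their SE and p-values can be too small. Over all 3130 genes, 45 were of this kind, of which 18 were called lower in OEC Lp and 15 in TEG3. The 7 members called in neither comparison (C1qc, C5ar1, Cd14, Cd37, Coro1a, Ptpn6 and Ptprc) had negative log2 ratios on both types. The replicate number is the array type, so the test's error is the disagreement of the types, and the labels do not say whether these carried separate RNA pools. Without the replicate block of array type 0 members passed limma in any comparison, with 5 in OEC Lp and 7 in TEG3 at an unadjusted p under 0.05, beside 193 and 173 of all 3130 genes. With any single array of OEC Ep or OEC Lp left out, 0 passed in OEC Lp, and with any 1 of the 6 arrays left out, 0 passed in TEG3. Without either TEG3 array 1 member, Lyz2, passed in OEC Lp.

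**Figure D2:**
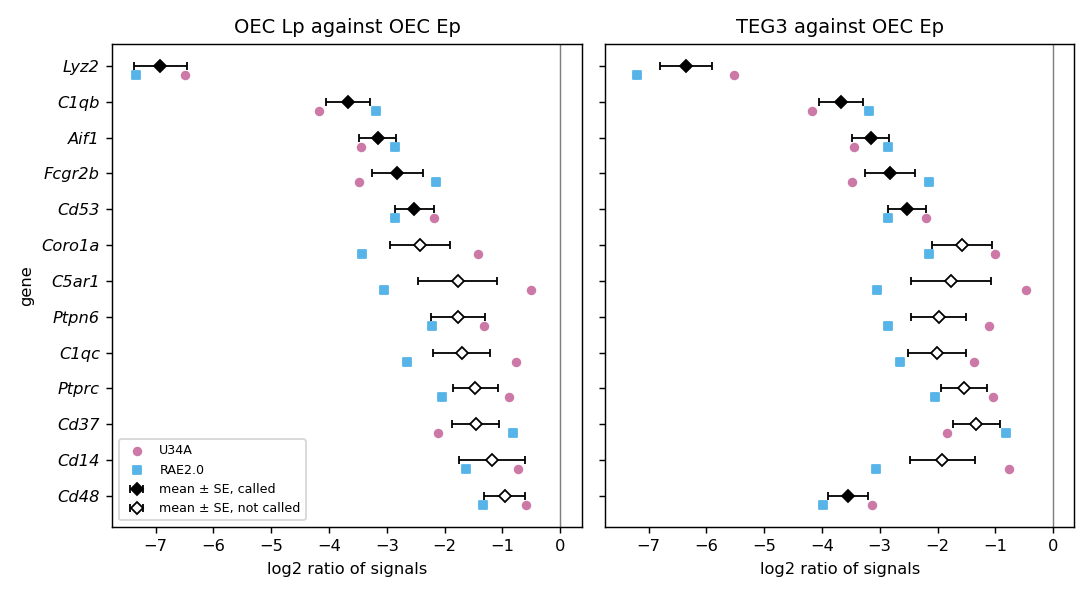
Log2 ratio of OEC Lp to OEC Ep (left) and of TEG3 to OEC Ep (right) for the 13 members tested on both array types, with the U34A and RAE2.0 ratios as coloured points and their mean with the limma standard error as diamonds, filled where the adjusted p is under 0.05. All points lie below 0, and the distance between the types differs from gene to gene, being widest for C5ar1 in both comparisons.

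A few members stayed above the floor after long culture or immortalisation. At 20% or more of the OEC Ep signal on RAE2.0, a limit set after the values were seen, 4 members were kept in OEC Lp, 3 in TEG3 and 1 in both, 6 in all of 30. Over all genes past the filter, 92.6% met this limit in OEC Lp or TEG3. Cd48, a surface ligand of the immune receptor CD244, had U34A signals of 2087, 1384 and 238 and RAE2.0 signals of 8685, 3453 and 553, each in the order OEC Ep, OEC Lp, TEG3. On the log2 scale OEC Lp lay nearer to OEC Ep than to TEG3 on both types. The difference of OEC Lp from OEC Ep did not pass (log2 fold -0.96 ± 0.348 SE, limma adjusted p = 0.212), whereas TEG3 had 11.7-fold less than OEC Ep (-3.55 ± 0.348, adjusted p = 0.0101). TEG3 was also lower than OEC Lp, by 6.02-fold (log2 fold -2.59 ± 0.348 SE, adjusted p = 0.0435). This was the 1 member of 13 called between those populations, beside 1.05% of all genes called lower, 0.192% higher and 1.25% in either direction. It was not called with no floor, with no block or with any 1 array left out. Both array types carry a probe set made from the same Cd48 transcript record.

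Gpnmb, a transmembrane glycoprotein of lysosomes and melanosomes that is also made outside the myeloid lineage, had RAE2.0 signals of 9797, 5320 and 1989 in the same order. Its OEC Lp signal was 54.3% and its TEG3 signal 20.3% of that in OEC Ep. Cd14, the receptor that presents bacterial lipopolysaccharide to Tlr4, had RAE2.0 signals of 8668, 2787 and 1035 and U34A signals of 626, 376 and 369. Its log2 fold was -1.19 ± 0.569 SE in OEC Lp and -1.92 ± 0.569 in TEG3, neither of which passed (limma adjusted p = 0.334 and 0.133).

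Coro1a and Tlr2 were kept in TEG3 rather than in OEC Lp. Tlr2, a receptor for bacterial lipoproteins, had RAE2.0 signals of 1910 in OEC Ep, the floor in OEC Lp and 609 in TEG3, or 31.9% of OEC Ep. Coro1a (coronin 1A), an actin-binding protein of leukocytes, had RAE2.0 signals of 1819, the floor and 409 and U34A signals of 345, the floor and 172. On both types its order was OEC Ep, TEG3, OEC Lp. The difference between TEG3 and OEC Lp did not pass (log2 fold 0.85 ± 0.516 SE, limma adjusted p = 0.526). On RAE2.0, 3 of 30 members were at least 2-fold lower and 2 higher in TEG3 than in OEC Lp, beside 8.69% and 9.61% of all genes. With no floor these counts were 10 and 8. On U34A, 1 of 15 was lower and 0 higher, beside 11.5% and 8.06%.

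**Figure D3:**
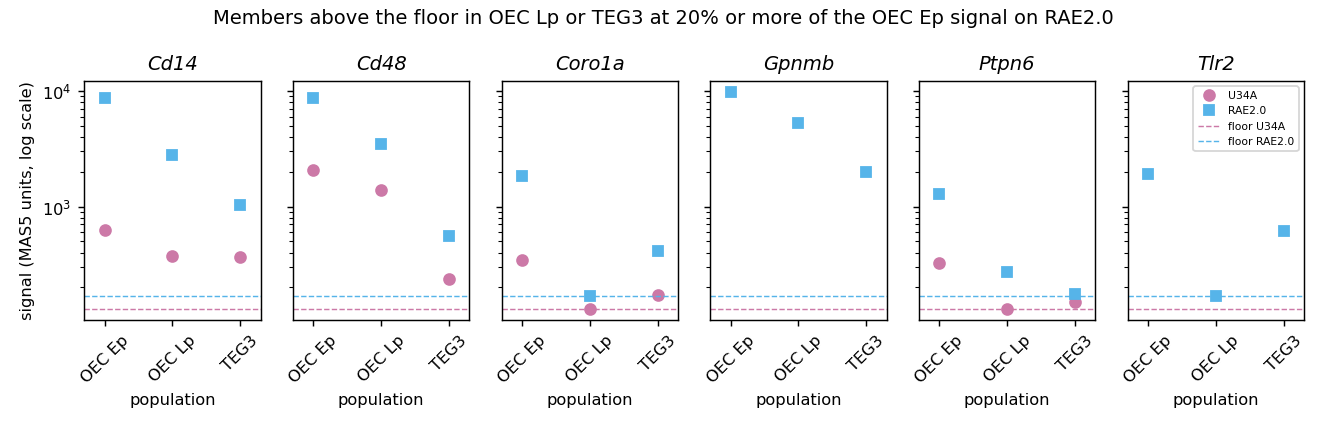
Signal (vertical, MAS5 units, log scale) on each array of the 6 members above the floor in OEC Lp or TEG3 at 20% or more of their OEC Ep signal on RAE2.0, with 1 point per array and the floors dashed. Cd14, Cd48, Gpnmb and Ptpn6 on RAE2.0 have OEC Lp between the other populations, and Coro1a and Tlr2 have OEC Lp at the floor and TEG3 above it; Gpnmb and Tlr2 have no U34A point.

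Other myeloid genes were looked at from a further list of 90, also drawn up with earlier results of these data known. Of the 29 on both types, 7 fell and 1 rose in OEC Lp, beside 4.03% and 2.11% of all genes. In TEG3, 8 fell and 0 rose, beside 3.77% and 0.671%. On RAE2.0, 44 of 68 were at least 2-fold lower and 1 higher in OEC Lp, beside 10.4% and 10.4% of all genes. In TEG3, 47 were lower and 1 higher, beside 10.6% and 12%. Ctss (cathepsin S, a protease of antigen-presenting cells) fell at least 20.8-fold in both (limma adjusted p = 0.00869 and 0.0101), with U34A signals of 4285 in OEC Ep and the floor elsewhere. Pf4, a chemokine of platelets and macrophages, fell at least 12.6-fold in OEC Lp and 9.56-fold in TEG3 (adjusted p = 0.0082 and 0.0105). Ly86 (MD-1), a partner of the receptor CD180, fell at least 7.29-fold and 7.89-fold, and P2ry6, the UDP receptor that triggers phagocytosis in microglia, at least 4.91-fold and 4.18-fold. Adgre1 (F4/80), the classical surface marker of rodent macrophages, had RAE2.0 signals of 15819 in OEC Ep and the floor in both others. Genes of this list at the floor in both other populations, such as Ctss and Adgre1, passed the filter only through OEC Ep. Their direction was therefore fixed.

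Some genes of that list stayed well above the floor in at least 1 other population. Spp1 (osteopontin) had RAE2.0 signals of 7701, 5127 and the floor, but U34A signals of 18231, 1724 and 286. The types thus disagreed on how much lower OEC Lp was, and that difference did not pass (limma adjusted p = 0.198). Over both types Spp1 fell at least 54.0-fold in TEG3 (limma adjusted p = 0.0165). Lgals3 (galectin-3) had RAE2.0 signals of 12269, 4585 and 6911 and U34A signals of 5399, 3934 and 2235. The types thus ordered OEC Lp and TEG3 differently. Cyba, the oxidase subunit that many cells make, had RAE2.0 signals of 8736, 4234 and 3910 and U34A signals of 2253, 2056 and 1331. Neither gene was called. The gene that rose in OEC Lp was Tlr4, the lipopolysaccharide receptor that also occurs outside myeloid cells, by a log2 fold of 1.66 ± 0.299 SE or at least 3.15-fold (limma adjusted p = 0.0349). Its RAE2.0 signals were 478, 1345 and 397. Of genes most typical of resting microglia, named after their values were seen, P2ry12 had 313 on RAE2.0 and 652 on U34A in OEC Ep. It was at the floor elsewhere on both types and did not pass (limma adjusted p = 0.124 and 0.122). The RAE2.0 value was the mean of probe sets at 175 and 558. Tmem119 had RAE2.0 signals of 763, 534 and 608, and Gpr34 was at the floor on every RAE2.0 array.

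On RAE2.0 most markers of other blood cells were at the floor in OEC Ep. On RAE2.0, 3 of 21 T and NK cell markers, 2 of 6 B and plasma cell markers, 1 of 9 mast cell markers, 1 of 8 neutrophil markers and 2 of 7 red cell and platelet markers were above the floor in OEC Ep. On U34A the counts in the same order were 5 of 15, 0 of 1, 2 of 9, 0 of 6 and 4 of 5, so most red cell and platelet markers were above it there. Lck, a kinase of T cells, had RAE2.0 signals of 375 in OEC Ep against 372 in OEC Lp and 924 in TEG3, and Cd22 of B cells 285 in OEC Ep and the floor elsewhere. The neutrophil entry was Lcn2 (lipocalin 2), which glia and epithelia also make, with 3173, 450 and 5169. None of the genes on both types from these 5 lists was called in a comparison with OEC Ep by limma, out of 4, 1, 1, 1 and 3, and 0 had an unadjusted p under 0.05. For MHC class II, the molecule that Cd74 accompanies, 3 of 7 genes were above the floor on RAE2.0 in each population. On U34A, 6 of 8 were above it in OEC Ep against 2 in OEC Lp and 2 in TEG3. There, 1, 3 and 3 more had only some of their probe sets above it. RT1-DMa and RT1-DMb, which load peptides onto class II, had RAE2.0 signals of 926, 618 and 862 and of 725, 823 and 240. Their U34A signals were 560, 201 and 227 for RT1-DMa, and 640, the floor and the floor for RT1-DMb. By limma, 0 of 4 class II genes on both types were called, with 1 at an unadjusted p under 0.05 in each comparison with OEC Ep.

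**Figure D4:**
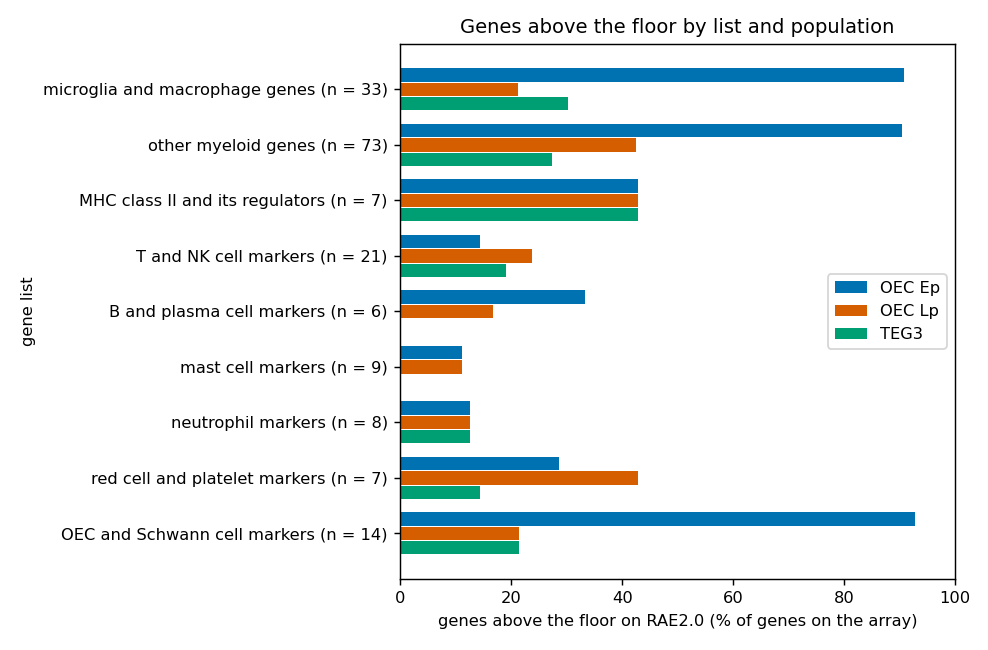
Share of genes on the RAE2.0 array that were above the floor (horizontal, % of the genes of each list on the array) in the 3 populations, 1 array each, for the microglia and macrophage genes and other marker lists. The microglia and macrophage, other myeloid and OEC lists reach over 90% in OEC Ep and less than 50% in the other populations.

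Markers of OECs were lower outside OEC Ep as well. Of 12 OEC and Schwann cell genes on both types, 9 fell in OEC Lp and 9 in TEG3, with median log2 folds of -4.17 and -4.04. Over all genes 4.03% and 3.77% were called lower. Summed over the list on RAE2.0, their signals came to 144274 in OEC Ep against 5626 in OEC Lp and 4739 in TEG3. The myeloid members summed to 104370, 16521 and 8878. Such sums count genes at the floor with the floor value and depend on a few bright genes. Among the members in OEC Lp, Cd14, Cd48 and Gpnmb, with 2787, 3453 and 5320, made up most of the sum. Fibroblast and meningeal markers summed to 133140, 136504 and 40016, sums that cover changes in both directions. Of 10 such genes on both types, 2 fell (Postn and Thy1) and 2 rose (Col3a1 and Prrx1) in OEC Lp, and 2 fell and 0 rose in TEG3. The part of these other cell types in the myeloid differences was not tested.

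Ligands for the myeloid receptors were measured on the same arrays. Of 7 on both types, 1 fell and 1 rose in OEC Lp against OEC Ep, beside 4.03% and 2.11% of all genes. In TEG3 against OEC Ep, 2 fell and 0 rose, beside 3.77% and 0.671%. Csf1, the ligand of Csf1r, had RAE2.0 signals of 1060, 1092 and 875 and U34A signals of 421, 479 and 152, and was not called in any comparison (limma adjusted p from 0.302 to 0.916). Cx3cl1 (fractalkine), the ligand of Cx3cr1, was the 1 ligand that rose in OEC Lp, by a log2 fold of 3.41 ± 0.376 SE or at least 10.7-fold (limma adjusted p = 0.0104), with RAE2.0 signals of the floor, 1303 and 220. Its receptor was at the floor on all arrays but the OEC Lp array of U34A, where it had 136. Cd200, which restrains microglia through its receptor, fell 44.8-fold in OEC Lp and at least 42.7-fold in TEG3 (adjusted p = 0.0117 and 0.0155). Apoe, a lipid carrier that binds Trem2, fell at least 72.9-fold in TEG3 (adjusted p = 0.00258) and had RAE2.0 signals of 22939, 14669 and 299. Its difference between OEC Lp and OEC Ep did not pass (adjusted p = 0.46). Ccl2 had RAE2.0 signals of 63919, 10891 and 17419 but U34A signals of 3040, 14144 and 18502, so the types disagreed in direction. They also disagreed for Cd47 in both comparisons with OEC Ep and for C3 in OEC Lp. None of these genes was called.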

How the data were processed

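The deposited values are MAS5 signal intensities on a linear scale, as whole numbers without detection calls, which the authors made with MAS5, per the submitters' processing notes; the design text names Microarray Suite 5.0 and a filter on inaccurate probe sets whose setting is not given in the sources used here. The 2% trimmed mean was 990 to 996 on every array. Arrays were scaled to the same trimmed mean within a type, control probe sets (59 on U34A, 57 on RAE2.0) were left out, signals under the 40th percentile were set to it, and probe sets had to exceed it on at least 1 of 3 arrays (6354 and 22185). Symbols came from the platform annotation where single (7006 and 20826 probe sets; 308 and 436 had several, 1426 and 9780 none), and log2 signals of the passing probe sets were averaged per gene. limma 3.58.1 (R 4.3.3) was run on the genes that passed on both types, with population and array type as terms, and p-values were adjusted by Benjamini-Hochberg over 3130 genes, with calls at 0.05. Where one side was at the floor, the fold is a lower bound, written with the words at least. The lists were written from textbook knowledge; members and lists were chosen with earlier results of these data known. From other lists, up to 6 genes on both types with the lowest p (4 for OEC and fibroblast markers) and as many with the highest RAE2.0 signal could be named; exceptions are stated. The procedure was tested on simulated data. Other floors, no filter, other scalings, 1 probe set per gene, no block, the 4 arrays of a pair and leaving out each array were tried. p-values measure the spread between these arrays after signals were set to the floor, which may be technical. Genes at the floor in OEC Lp and TEG3 on both types have no spread left between those populations. Their SE and p-values can therefore be too small. Labels give no culture or animal shared by arrays of the same number.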

Additional observations from a re-analysis of the deposited data

How the results depend on the processing

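Quantile normalization, signals as deposited and the probe set with the highest mean signal kept the number of called members within 1.5 times in all 3 comparisons, and no called log2 fold changed its direction under any alternative. For OEC Lp against OEC Ep the 5 calls became 3 with the floor at the 60th percentile, 0 with no filter on dim probe sets, 0 with no replicate block, 1 with only the 4 arrays of the pair, and 0 to 1 when 1 array was left out. For TEG3 against OEC Ep the 6 calls became 2 with no floor and 0 with no filter, with no replicate block, with only the 4 arrays and with any 1 array left out (0 to 0). For TEG3 against OEC Lp the 1 call became 0 with no floor, with the floor at the 20th percentile, with no filter, with no replicate block, with only the 4 arrays and with any 1 array left out. A population left with 1 array was taken to vary as the others do. With no replicate block, limma had 5, 7 and 1 members at an unadjusted p under 0.05 in these comparisons, beside 193, 173 and 108 of all 3130 genes. Over all genes the calls in OEC Lp against OEC Ep were 192, and 66 with no floor, 124 with the floor at the 20th percentile, 1 with no filter, 38 with the 4 arrays and 0 with no block. In TEG3 against OEC Ep the 139 became 11 with no floor and 1 with no filter, and in TEG3 against OEC Lp the 39 became 0 with no floor and 4 with the floor at the 20th percentile. On RAE2.0, the 3 members at least 2-fold lower in TEG3 than in OEC Lp became 10 with no floor and 6 with the floor at the 20th percentile. Members above the floor in OEC Lp on RAE2.0 were 7, and 15 with the floor at the 20th and 3 with it at the 60th percentile, and the 10 in TEG3 became 4 at the 60th. On U34A the 6 in OEC Lp became 2 and the 8 in TEG3 became 1 at the 60th percentile. The cause of these changes was not tested.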
